A study of Rattus norvegicus with 6 samples.

Results

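The rat genes of 10 islet peptide hormones other than insulin (Iapp, Npy, Gcg, Sst, Ppy, Pyy, Ghrl, Cck, Gal and Ucn3) were followed in total RNA from INS-1 insulinoma lines. They were chosen by name, and all 10 were found by symbol among the 32900 features of the count table. Of these, 5 were among the 15579 genes tested, which are those whose mean normalized count across the lines was 5 or more, and 5 lay below that level.
The lines are clones of INS-1(832/13)::mCherry, a rat insulinoma line that carries human INS and mouse Ins2-mCherry transgenes, grown in RPMI medium with 7.5 mM glucose and given no treatment. The 3 Control lines, 5-9, 2 and 16, carry a deletion of the imprinted Prader-Willi syndrome (PWS) domain on the silent maternal allele. The 3 PWS lines, 3, 19-1 and 19-4, carry that deletion and a further one of the active paternal allele. Lines 19-1 and 19-4 are subclones of line 19, lines 2, 16, 3 and 19 were isolated from line 5-9, and each line gave 1 library, so p-values measure the spread between these lines and not between cultures of a line.

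Peptide hormones are made as precursors that enter the secretory pathway, are cut by prohormone convertases, trimmed and often amidated, and are stored in granules. In the islet several of these hormones mark a cell type. Beta cells store insulin with amylin, the product of Iapp, and mature beta cells make urocortin 3 from Ucn3. Alpha cells make glucagon from Gcg, delta cells somatostatin from Sst, PP cells pancreatic polypeptide from Ppy, and epsilon cells ghrelin from Ghrl. Npy, Ppy and Pyy encode 1 family of related amidated peptides. Cck encodes cholecystokinin and Gal encodes galanin, peptides of gut endocrine cells and neurons.

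The 250 bases upstream of the start of Iapp, Npy and Gcg are shown because Iapp and Npy were the members with separated groups and Gcg stood apart in 1 line. They come from RefSeq, assembly GRCr8, and are written on the strand of the gene. Iapp lies at chr4:176967847-176968096 on the plus strand, Npy at chr4:80211861-80212110 on the plus strand and Gcg at chr3:67531534-67531783 on the minus strand. Capitals mark the TATA box core TATAAA and the homeodomain core TAAT, on either strand.
Iapp: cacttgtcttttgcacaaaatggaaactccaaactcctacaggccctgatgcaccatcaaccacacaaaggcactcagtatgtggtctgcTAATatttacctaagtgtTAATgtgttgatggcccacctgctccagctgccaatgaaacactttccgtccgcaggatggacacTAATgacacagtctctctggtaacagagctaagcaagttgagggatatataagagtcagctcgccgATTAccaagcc
Npy: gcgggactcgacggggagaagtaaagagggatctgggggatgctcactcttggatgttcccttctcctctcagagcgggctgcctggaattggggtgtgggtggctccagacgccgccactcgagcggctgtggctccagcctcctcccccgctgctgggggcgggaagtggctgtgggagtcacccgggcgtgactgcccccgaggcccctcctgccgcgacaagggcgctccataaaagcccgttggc
Gcg: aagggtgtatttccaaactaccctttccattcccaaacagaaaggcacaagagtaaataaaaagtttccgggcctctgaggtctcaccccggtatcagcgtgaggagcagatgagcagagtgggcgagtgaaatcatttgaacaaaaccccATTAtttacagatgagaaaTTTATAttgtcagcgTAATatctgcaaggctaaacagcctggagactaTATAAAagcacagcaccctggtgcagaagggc

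Of the 10 members, 9 had a window in the RefSeq table, and Cck had none there. Motifs were searched on both strands from 250 bases before to 50 bases after the start, with the start as base 1. TATAAA was found in 3 members (Gcg, Ppy and Gal), and in 14.2% of all 33469 windows. In Gcg and in Ppy a copy lay at -32 to -27. TAAT, the core bound by homeodomain factors such as Pdx1, was found in 4 members, with 4 copies in Iapp, 2 in Gcg, 3 in Ucn3 and 5 in Sst, and in 60.6% of all windows. CCAAT was found in Iapp, Npy and Ppy, and in 37.5% of all windows. The cAMP response element TGACGTCA was found in Sst alone among the members and in 1.83% of all windows, and the ER stress response element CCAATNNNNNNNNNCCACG, which contains a CCAAT box, in no member and in 0.0657% of all windows. In Sst the cAMP response element lay at 3 to 10, just past the annotated start. These matches are descriptions of the letters only.

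The libraries held between 26016478 and 36084261 counted reads, in a counting that keeps a read at every place it aligns. A count of 0 in a line allows up to 3 reads (a one-sided 95% limit, unlike the two-sided intervals given below), which is 2.73 to 3.59 normalized counts depending on the line. Normalized counts are reads divided by a size factor per library. Intervals on reads cover counting error only. The deleted genes matched the labels, with 3442 to 4205 Snurf reads and 79 to 97 Mkrn3 reads in Control lines against at most 4 and 0 reads in PWS lines. All 14 beta cell markers measured, Ucn3 among them, passed 3 reads in at least 1 line. Of the measured markers of other cell types 0 of 8 acinar, 0 of 5 fibroblast, 2 of 5 duct and 1 of 5 leukocyte genes did. So did 2 of 3 endothelial and 3 of 6 enteroendocrine genes, the last with Cck among them. The summed duct markers ranged from 19.3 to 27.5 normalized counts in the Control lines and from 32.7 to 39.5 in PWS lines. These sums did not overlap. Of the 15579 genes tested, 1314 also had every PWS line above every Control line. Sox9 and Muc1, the 2 duct genes past 3 reads, each overlapped between the groups (limma adjusted p 0.545 and 0.596). The part of the duct markers in the results was not tested. Over all 15579 genes the median log2 fold change, PWS against Control, was -0.0028.

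Only 5 of the 10 members had more than 3 reads in any line. These were Iapp, Npy, Cck, Gcg and Ucn3, the same 5 that were tested. Sst and Gal had 0 reads in all 6 lines. Ghrl had 1 read in line 16 and 0 in the other 5 lines. Ppy had 1, 3 and 0 reads in Control lines 5-9, 2 and 16 and 0 in each PWS line. Pyy had 1, 2 and 0 reads in the Control lines and 0, 3 and 0 in PWS lines 3, 19-1 and 19-4. Expression of these 5 genes was thus not detectable above 3 reads in any library, and no fold change is given for them. With the floor set at 1 read in place of 3, Ppy and Pyy also passed and the count was 7.

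**Figure D1:**
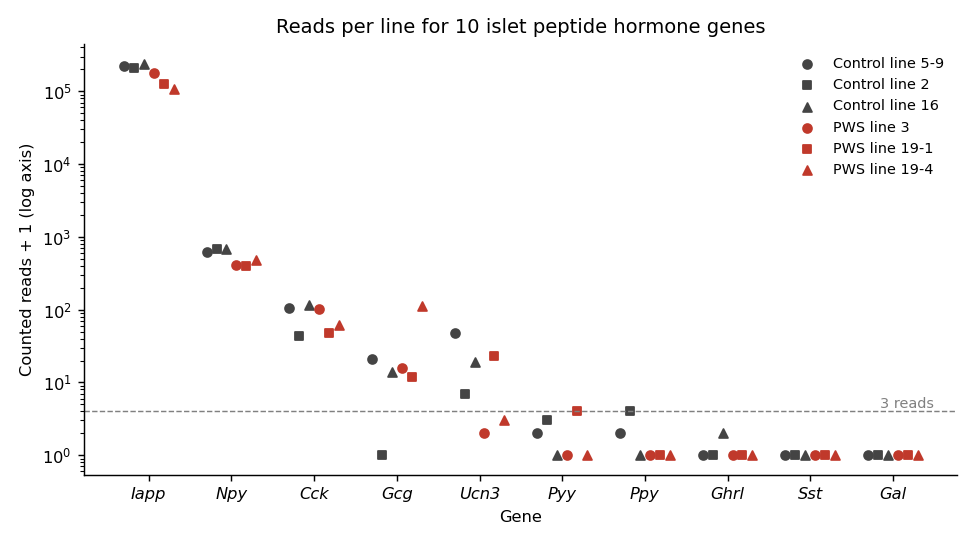
Counted reads plus 1 on a log axis for the 10 hormone genes, with 1 point per line (black, Control; red, PWS) and a dashed line at 3 reads. Iapp stands at 107517 reads or more in every line, whereas Sst and Gal stand at 0 reads throughout.

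Among the other defining markers of the other islet cell types, the delta cell genes Rbp4 and Ghsr and the alpha cell genes Irx1 and Irx2 were at 0 in every line. Of the delta cell list 2 of 5 genes passed 3 reads (Hhex and Lepr), and its summed level lay between 7.19 and 10.4 normalized counts for Control and from 8.37 to 21.8 for PWS lines. Of the PP cell list 1 of 4 passed, Etv1, with Meis2 and Aqp3 at 0. Of the epsilon cell list 1 of 3 passed, Acsl1, which many cell types use. Of the alpha cell list 5 of 8 passed, Gcg among them. Its summed level was 17939 to 22688 normalized counts in the Control lines and 15026 to 22627 in PWS lines. Nearly all of this sum came from Gc, which encodes vitamin D-binding protein.

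PWS INS-1 lines were compared with control lines for the 5 measured hormones. Every PWS line lay below every Control line for Iapp and Npy, while the groups overlapped for Gcg, Cck and Ucn3. The spread between clones differed by gene, from a residual standard deviation of 0.11 on the log2 scale for Npy to 2.01 for Gcg, with a median of 0.15 over all genes tested. By limma with Benjamini-Hochberg adjustment over all genes, 0 of the 5 were called at a threshold of 0.05, where 0.257% of genes were called. Without adjustment 2 of the 5 had a p-value under 0.05, both lower in PWS lines, against 5.35% of all genes lower at that level. Non-overlapping groups with PWS lower were seen for 2 of the 5 and for 9.01% of all genes. On the recovered reads edgeR called 0 of the 5, and DESeq2 called 1, Npy, where 0.783% of genes were called lower. Reads from bulk cultures cannot tell apart fewer cells that make a hormone and less RNA of it per cell.

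**Figure D2:**
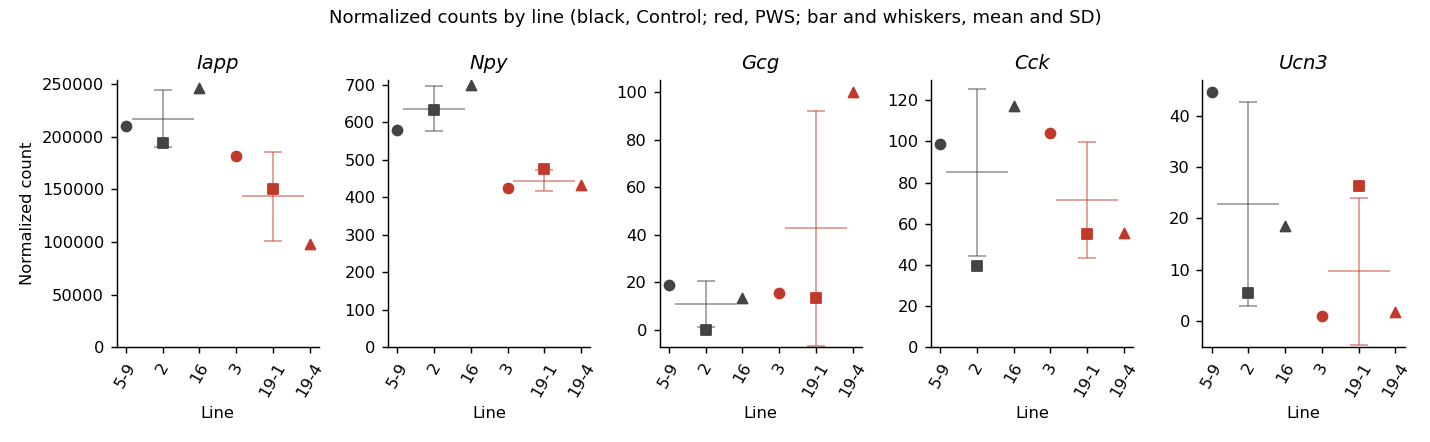
Normalized counts (linear axis, one scale per panel) of Iapp, Npy, Gcg, Cck and Ucn3 in each line, with the mean and SD (n = 3 lines) of each group. The groups are separate for Iapp and Npy, whereas for Gcg the point of line 19-4 and for Ucn3 those of lines 5-9 and 19-1 stand above the rest.

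Iapp (ENSRNOG00000012417) encodes amylin, which is stored and released with insulin and slows gastric emptying. It had 210391, 194173 and 246567 normalized counts in the Control lines 5-9, 2 and 16, and 181227, 150687 and 97752 in PWS lines 3, 19-1 and 19-4. The lowest Control line, line 2, lay just above the highest PWS line, line 3, and line 19-4 lay far below its sister subclone. The means were 217044 ± 26823 (SD, n = 3) and 143222 ± 42235 (SD, n = 3) in normalized counts, giving a ratio of PWS to Control of 0.660. On the log2(normalized count + 1) scale the difference was -0.64 (standard error 0.22, unadjusted 95% interval -1.15 to -0.12), with a limma adjusted p of 0.364. The adjusted p was 0.349 by edgeR and 0.0651 by DESeq2, which is under a threshold of 0.1 but not of 0.05. The sister subclones 19-1 and 19-4 differed in Iapp by a ratio of 0.649 (19-4 to 19-1), close to the ratio between the group means. Without line 19-4 the log2 difference was -0.39, and without line 3 it was -0.83.

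Iapp transcripts took a large share of each library. They made up 0.659%, 0.586% and 0.747% of the counted reads in the Control lines and 0.555%, 0.484% and 0.317% in the PWS lines. Of the Iapp reads 99.6% were counted uniquely. RSEM, which assigns reads to transcripts, gave Iapp 38.8% of the level of the read counting, with a cause that was not tested, and a PWS to Control ratio of 0.674.

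Npy (ENSRNOG00000046449) encodes neuropeptide Y, an appetite-stimulating peptide of hypothalamic neurons that restrains insulin release in islets. It had 579, 632 and 699 normalized counts in the Control lines 5-9, 2 and 16, and 424, 476 and 434 in PWS lines 3, 19-1 and 19-4. The gap between the groups was wider than the range of the PWS lines but narrower than that of the Control lines. Line 19-4 lay nearer to line 3 than to its sister subclone 19-1. The means were 637 ± 60.3 (SD, n = 3) and 444 ± 27.7 (SD, n = 3) in normalized counts, giving a ratio of 0.698. The log2 difference was -0.52 (standard error 0.10, unadjusted 95% interval -0.75 to -0.28) with a limma adjusted p of 0.193. The adjusted p was 0.201 by edgeR and 0.00769 by DESeq2, so that the call depended on the tool. The difference stayed between -0.58 and -0.45 with any 1 line left out.

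The Npy value carries a limit of annotation. A second annotated gene, LOC100912228 (ENSRNOG00000009768), had the same reads in 5 of the lines and 399 against 398 in line 19-1, and 0% of the Npy reads were unique. The values above are therefore those of reads counted for both genes. Whether these reads align at separate places, or the annotations overlap at 1 place, was not checked. RSEM, which divides such reads, put 512, 581 and 614 in Npy in Control lines and 384, 442 and 373 in PWS lines. It put at most 24.7 in LOC100912228. The groups did not overlap in that counting either, and the log2 difference was -0.51 with a limma adjusted p of 0.320.

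Cck (ENSRNOG00000019321), the gut and brain peptide that drives gallbladder contraction and pancreatic enzyme release, varied as much within groups as between them. It had 98.7, 39.5 and 117 normalized counts in the Control lines 5-9, 2 and 16 and 104, 55.0 and 55.5 in PWS lines 3, 19-1 and 19-4. The lowest value was that of a Control line, line 2, and line 3 was above line 5-9. The log2 difference was -0.17 (standard error 0.42) with an unadjusted 95% interval from -1.14 to 0.79 and a limma adjusted p of 0.917. Its sign depended on single lines, from -0.65 without line 2 to 0.12 without line 16.

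Gcg (ENSRNOG00000005498) encodes proglucagon, the precursor of glucagon in alpha cells and of GLP-1 in gut cells. It had 20, 0 and 13 reads in Control lines 5-9, 2 and 16 and 15, 11 and 110 reads in PWS lines 3, 19-1 and 19-4. Line 19-4 stood apart from all the others, line 2 had none, and the remaining lines lay within a narrow range that both groups shared. In normalized counts line 19-4 had 100.01 (exact Poisson 95% interval 82.2 to 120.5), whereas its sister subclone 19-1 had 13.2 (6.57 to 23.5), a ratio of 7.60. The group means were 10.8 ± 9.75 (SD, n = 3) and 42.8 ± 49.5 (SD, n = 3) normalized counts. The log2 difference was 2.12 (standard error 1.17, unadjusted 95% interval -0.58 to 4.81; limma adjusted p 0.541). It was 1.20 without line 19-4 and 0.75 without line 2, and 1.38 with a pseudocount of 5, so its size rests on those lines and on the pseudocount.

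Markers of alpha and other endocrine cells were read beside Gcg in the same lines. Fev had 15 reads in line 19-4 and 4 to 8 in the others, and Hhex, a transcription factor of delta cells, had 15 against 1 to 3. Ttr had at most 2 reads in any line. Irx1, Irx2 and Sst were at 0 there as in the other lines. The part of these markers in the Gcg value was not tested.

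Ucn3 (ENSRNOG00000017759), a corticotropin-releasing factor family peptide that beta cells release to stimulate delta cells, was low and uneven. It had 47, 6 and 18 reads in Control lines 5-9, 2 and 16 and 1, 22 and 2 reads in PWS lines 3, 19-1 and 19-4. Lines 3 and 19-4 were below the 3-read floor, while line 19-1 was above Control lines 2 and 16, so the groups overlapped. The means were 22.9 ± 19.9 (SD, n = 3) and 9.72 ± 14.4 (SD, n = 3) normalized counts. The log2 difference was -1.74 (standard error 1.04, unadjusted 95% interval -4.13 to 0.65; limma adjusted p 0.569), and it ranged from -2.91 without line 19-1 to -1.03 without line 3. With a pseudocount of 5 it was -1.08.

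**Figure D3:**
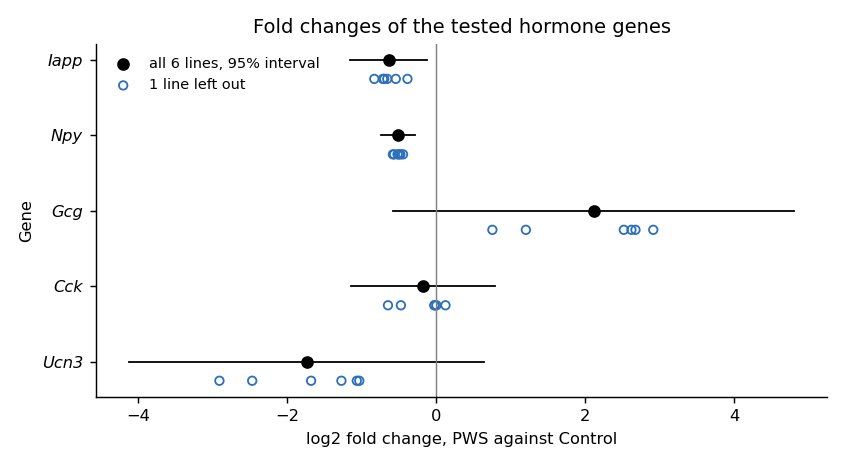
Log2 fold change, PWS against Control, of the 5 tested hormone genes (filled points, all 6 lines, with the unadjusted 95% interval from limma) and with 1 line left out (open points). Npy moves least, from -0.58 to -0.45, whereas Cck crosses 0 and Gcg moves from 0.75 to 2.91.

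The position of a hormone among all genes in its spread between clones of a group was then described. Gcg had a larger residual standard deviation than 99.8% of the genes tested, Ucn3 than 99.7% and Cck than 95.9%. For Iapp it was larger than 82.7% of genes, at 0.35 on the log2 scale, and for Npy larger than 35.2%. The low counts of Gcg and Ucn3 enter these values. For Iapp, with 107517 reads or more in each line, counting error is small beside the difference between lines.

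Iapp was next set against Ins1 (ENSRNOG00000012052), a rat insulin gene, within each line, a ratio that does not depend on the scaling between libraries and is not per transcript length. Ins1 had 256090, 262628 and 282807 normalized counts in the Control lines and 247273, 175597 and 133488 in PWS lines. The ratio of Iapp to Ins1 in normalized counts was 0.822, 0.739 and 0.872 in Control lines 5-9, 2 and 16 and 0.733, 0.858 and 0.732 in PWS lines 3, 19-1 and 19-4. The groups overlapped, with line 19-1 above line 5-9. On the log2 scale the means were -0.31 ± 0.12 (SD, n = 3) and -0.37 ± 0.13 (SD, n = 3), and the difference of -0.07 gave an exact two-sided permutation p of 0.5, where 3 lines against 3 can give no p below 0.1. The log2 difference of Ins1 itself was -0.57 (unadjusted 95% interval -1.07 to -0.08).

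The ratio of Npy to Iapp was -8.50, -8.26 and -8.46 on the log2 scale in Control lines and -8.74, -8.31 and -7.82 in PWS lines 3, 19-1 and 19-4. Both the lowest and the highest value belonged to PWS lines. The difference of 0.12 had an exact two-sided permutation p of 0.8, and it was -0.11 without line 19-4. Adjusted over the 2 ratios by Benjamini-Hochberg, the permutation p was 0.8 for both.

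**Figure D4:**
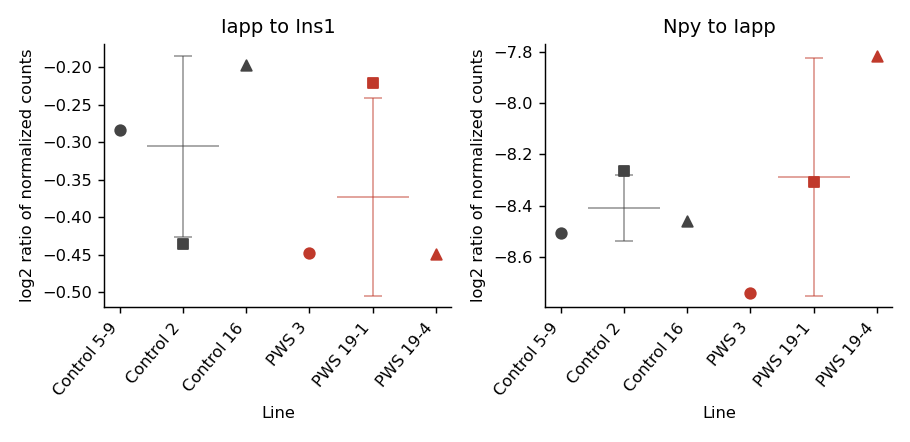
Log2 ratio of normalized counts within each line for Iapp to Ins1 (left) and Npy to Iapp (right), with the mean and SD of each group (n = 3 lines). The groups overlap in both panels, and line 19-4 has the highest Npy to Iapp ratio at -7.82.

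The genes whose log2(normalized count + 1) followed that of Iapp most closely over the 6 lines were Mad2l1bp (Pearson r = 0.998), Sema3d (r = 0.996) and Pzp (r = 0.992). Pzp went from 12.3 to 3.64 normalized counts across the PWS lines, with its lowest value in line 19-4, as had Iapp. For Ins1 the correlation with Iapp was 0.969, and 0.244% of the genes tested had a higher one. For Ins2 it was 0.825, exceeded by 4.52% of genes. For Npy the closest were Tmem128 (r = 0.990), Nexmif (r = 0.982) and Mcub (r = 0.981), with log2 differences of -0.16, -0.33 and -0.61. Npy correlated less with Ins1 (0.694) and Ins2 (0.712). Each r rests on 6 lines that share 2 groups and a pair of sister subclones, and is given as a description.

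Genes that process these precursors were compared in the same fit. Of 13 listed, 12 were found by symbol and tested. These include the convertases Pcsk1 and Pcsk2, carboxypeptidase E (Cpe) and the amidating enzyme Pam. By limma 0 passed the adjusted threshold, as with edgeR and DESeq2, while 2 had an unadjusted p under 0.05, both lower, where 5.35% of all genes were lower at that level. The median log2 difference was -0.08. The lowest was Qpct, glutaminyl cyclase, which caps the first residue of some peptides. It had 150, 124 and 193 normalized counts in the Control lines and 125, 99.2 and 101 in PWS lines, a log2 difference of -0.50 (standard error 0.19, limma adjusted p 0.393). The other was Pcsk4 at -0.33. The highest, Scg5, the chaperone of the convertase made by Pcsk2, was at 0.08. Only 12.7% of the Pcsk1 reads were unique.

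Of 25 listed receptor genes for the 10 hormones, including the Ramp partners of the amylin receptor, 24 were found by symbol and 14 were tested. Npy2r, Npy5r, Glp2r, Sstr2, Sstr4, Ghsr and Crhr2 had 0 reads in every line. Of the 14 tested, 0 passed the adjusted threshold by limma, edgeR or DESeq2 and 1 had an unadjusted p under 0.05, higher, where 6.0% of all genes were higher at that level. That gene was Glp1r, the GLP-1 receptor, with 1333, 1207 and 1545 normalized counts in the Control lines and 1756, 1784 and 1455 in PWS lines, a log2 difference of 0.29 (limma adjusted p 0.412). Line 19-4 fell below line 16, so the groups overlapped. The highest log2 difference was that of the somatostatin receptor gene Sstr3 at 1.52 (standard error 0.75, limma adjusted p 0.496), with values from 18.4 in line 2 to 342 in line 19-1. The lowest was that of the cholecystokinin receptor gene Cckar at -0.81 (standard error 0.42, limma adjusted p 0.514), where line 19-4 had 99.1 normalized counts and the others 310 to 446. The median of the 14 was 0.03.

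Of 41 other neuropeptide and hormone precursors, 39 were found by symbol, 18 passed 3 reads in a line and 11 were tested. By limma 0 passed the threshold, adjusted or not, and edgeR and DESeq2 called 0. On average 10 of the 11 were lower in PWS lines, with a median log2 difference of -0.17, while over all genes the median was -0.0028. Of the 10, Nucb2, Tac1 and Vgf were close to 0, at -0.006, -0.042 and -0.044. The lowest was Cartpt, which encodes the satiety peptide CART, at -0.62 (standard error 0.49, limma adjusted p 0.675), and the highest Tac3, the neurokinin B precursor, at 0.77 (limma adjusted p 0.467).

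**Figure D5:**
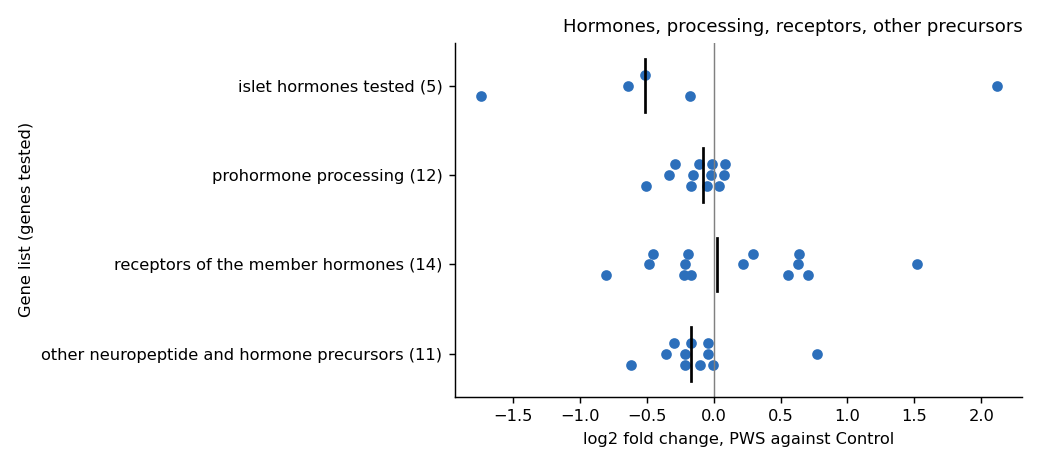
Log2 fold change, PWS against Control, of each tested gene (points) among the islet hormones, the prohormone processing genes, the receptors and the other precursors, with black bars at the medians. The 12 processing genes lie between -0.50 and 0.08, a narrower range than the 14 receptors, from -0.81 to 1.52.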

How the data were processed

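Total RNA of 6 INS-1 lines, 3 Control and 3 PWS with 1 library each, was sequenced after rRNA depletion (stranded, paired-end). The authors trimmed reads with cutadapt, aligned them with STAR 2.7.0e to the Ensembl rat genome with the transgenes added, counted them with HTSeq 0.11.2 (nonunique all, used here, and nonunique none) or RSEM 1.3.1, and divided the counts by size factors of DESeq2. The strand setting of the counting is not given in the sources used here. The deposited values per line are thus a signal, normalized counts, not whole counts. The deposited fold changes and p-values of the authors' own comparison were not used.

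Dividing each HTSeq column by its smallest value above 0 gave whole numbers, within 0.001, for 100% of the entries above 0, and these were taken as reads. Genes whose mean normalized count was 5 or more (15579) entered the main test, limma 3.58.1 in R 4.3.3 (lmFit and trended eBayes), on log2(normalized count + 1), adjusted by Benjamini-Hochberg with a threshold of 0.05. On recovered reads edgeR 4.0.16 and DESeq2 1.42.0 were alternatives. A ratio within a line was compared by an exact two-sided permutation test in scipy 1.17.1. Reads carry exact Poisson 95% intervals. The fits were tested on simulated data.

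Genes named are the 10 members, LOC100912228, which shares the Npy reads, and Ins1 and Ins2. Also named are the extremes of each list with any gene past the threshold, and the 3 closest patterns to Iapp and Npy. All others (among them Pcsk1, Pcsk2, Pcsk4, Cpe, Pam, Glp1r, Gast, Galr1, Gcgr, the receptors at 0, the cell type markers, and Snurf and Mkrn3 of the deleted domain) fall outside this rule and were named after their values were seen. Some marker genes are not reported here. The members and lists were chosen with earlier results of these data known. Transcript lengths were not used here, so sums over lists and ratios between genes are of counts and not per length. Alternatives were pseudocounts of 0.5 and 5, a filter at any read or at a mean of 50, TMM scaling, eBayes without trend, nonunique none counting, RSEM, each line left out, a replicate block, the mean of lines 19-1 and 19-4 as 1 sample, an adjusted p under 0.1, and a floor of 1 read.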

Additional observations from a re-analysis of the deposited data

How the results depend on the processing

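The count of the 10 hormones past the threshold was 0 in each alternative except DESeq2, where it was 1 (Npy). The count over all genes, 40 by limma, was 9 with a mean of at least 50, 228 by DESeq2, 16 with nonunique none counting and 12 with RSEM, and it was 33 to 55 with each line left out. Cck ranged from -0.65 to 0.12 on the log2 scale with each line left out, changing sign without line 5-9 or line 16. The log2 ratio of Npy to Iapp was -0.0068 with lines 19-1 and 19-4 averaged, and -0.11 to 0.35 with each line left out. These changes of sign depended on which line was left out or averaged, and their cause was not tested. The cause of the DESeq2, nonunique none and RSEM counts was not tested either. Iapp, Npy, Gcg and Ucn3 kept their direction in every alternative that gave a value. Npy could not be fitted with nonunique none counting, since none of its reads is unique, and Gcg and Ucn3 are below a mean of 50. With the replicate block 36 genes passed over all genes and 0 hormones. The labels share only the numbers: deviations of same-numbered lines correlated at 0.003, 0.047 and 0.005, and not every line correlated best with its own number. Depth limits the 5 hormones at or under 3 reads, for which no change could be seen, and the precision of Gcg and Ucn3.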

Other observations

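Gastrin, encoded by Gast, shares its receptor-binding end with cholecystokinin. Its gene had 2836, 3520 and 8678 normalized counts in the Control lines 5-9, 2 and 16 and 4748, 3757 and 2307 in PWS lines 3, 19-1 and 19-4. Line 16 was the highest and line 19-4 the lowest, and the groups overlapped, with a log2 difference of -0.36 (standard error 0.41, limma adjusted p 0.789). Galr1, a receptor for galanin, had 113 to 198 normalized counts in the Control lines and 195 to 320 in PWS lines, which overlap, with a log2 difference of 0.56 and a limma adjusted p of 0.467. Its ligand gene Gal had 0 reads in all 6 lines. Gcgr, the glucagon receptor, had 2407 to 2832 normalized counts in the Control lines and 2197 to 2363 in PWS lines, which do not overlap, as for 9.01% of all genes in that direction, with a log2 difference of -0.17 and a limma adjusted p of 0.480. These 3 genes were named after their values were seen.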
